A study of Mus musculus with 48 samples.

Results

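The genes of the tumour necrosis factor (TNF) superfamily, of their receptors and of the TNF-induced protein group were followed in mouse lung RNA after cigarette smoke in lean and obese animals. Members were all genes whose symbol in the array's probe annotation starts with Tnf, with 1 exception, and each was read from the probe set with the highest mean over the arrays. Probe sets annotated to several genes were not used, so Tnfsf12 (TWEAK) and Tnfsf13 (APRIL, a ligand of TACI), which share 2 such probe sets with their joint transcript Tnfsfm13, were not analysed here. This gave 32 of the 12393 genes measured, namely 8 ligands, 18 receptors and 6 Tnfaip genes. Each of 48 arrays held the lung RNA of 1 male C57BL/6 mouse, and the arrays formed 6 groups of 8. Regular weight animals (RW) ate chow with about 5% of calories from fat. Diet-induced obese animals (DIO) ate a diet with 60% of calories from fat from 6 weeks of age, for 9 weeks before the exposures. Both diets went on during the study, and all mice were 15 weeks old when the exposures began. Within each diet a group breathed filtered air as the sham control (RW-SC, DIO-SC), mainstream smoke (RW-MS, DIO-MS) or sidestream smoke (RW-SS, DIO-SS). Mainstream smoke is what is drawn through the cigarette, and sidestream smoke comes off its burning tip between puffs. Animals were exposed nose-only on 8 days within 2 weeks, for 5 hours each time, and lungs were taken on the day after the last exposure. The growth protocol ties the length of the high-fat feeding to a study of lipopolysaccharide, and whether any of these animals met another agent is not stated.

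TNF ligands are mostly trimeric proteins on or shed from cells, and their receptors recruit TRAF adaptors or death domain proteins. Many of these receptors switch on NF-kB, and Tnfaip3 (A20) is an NF-kB target that shuts the signal off again. In the lung, TNF from macrophages and epithelium drives the endothelial adhesion molecules and chemokines that bring in leukocytes, while BAFF (Tnfsf13b) keeps B cells alive through its receptors. 4-1BB (Tnfrsf9) and its ligand (Tnfsf9), OX40 (Tnfrsf4) and CD30 ligand (Tnfsf8) act between antigen-presenting cells and activated lymphocytes. Because whole lungs were used, fewer cells of a type and less RNA per cell cannot be told apart in any value below.

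Upstream sequence was available for 27 of the 32 members in RefSeq's GRCm38.p6 annotation, as the 250 bases before each annotated start. The 6 windows below are shown because they belong to the 6 members that rose after mainstream smoke in at least 1 diet and hold a match, in capitals, to 1 of 2 motifs of 10 bases searched on both strands. The first 4 hold the kB consensus that NF-kB proteins bind. The last 2 hold GAAA, any 2 bases and GAAA again, the core of the interferon-stimulated response element (ISRE), which lies on the opposite strand in Tnfrsf1b. Each sequence is printed 5′ to 3′ on the strand of the gene, and its last base lies next to the start.
Tnfrsf9, chr4:150927749-150927998, plus strand: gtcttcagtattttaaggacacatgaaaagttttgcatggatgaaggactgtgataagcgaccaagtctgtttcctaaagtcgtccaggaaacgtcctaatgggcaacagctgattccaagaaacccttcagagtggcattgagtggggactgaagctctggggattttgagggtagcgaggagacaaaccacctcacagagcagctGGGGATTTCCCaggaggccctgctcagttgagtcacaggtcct
Tnfaip2, chr12:111442411-111442660, plus strand: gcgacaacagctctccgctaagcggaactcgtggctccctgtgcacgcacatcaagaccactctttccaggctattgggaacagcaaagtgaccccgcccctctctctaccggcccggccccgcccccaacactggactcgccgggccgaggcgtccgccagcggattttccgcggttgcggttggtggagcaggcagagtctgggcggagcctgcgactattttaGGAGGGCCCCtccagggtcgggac
Tnfaip3, chr10:19015411-19015660, minus strand: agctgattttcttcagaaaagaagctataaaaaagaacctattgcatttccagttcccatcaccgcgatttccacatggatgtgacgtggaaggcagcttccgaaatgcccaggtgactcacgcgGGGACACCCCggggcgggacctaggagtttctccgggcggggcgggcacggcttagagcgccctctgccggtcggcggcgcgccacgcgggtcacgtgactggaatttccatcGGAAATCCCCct
Tnfaip8l1, chr17:56162241-56162490, plus strand: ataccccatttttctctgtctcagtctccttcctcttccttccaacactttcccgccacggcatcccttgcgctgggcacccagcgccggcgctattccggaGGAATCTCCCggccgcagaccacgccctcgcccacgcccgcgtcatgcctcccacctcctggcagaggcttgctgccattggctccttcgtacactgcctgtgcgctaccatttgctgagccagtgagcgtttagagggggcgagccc
Tnfsf13b, chr8:10006383-10006632, plus strand: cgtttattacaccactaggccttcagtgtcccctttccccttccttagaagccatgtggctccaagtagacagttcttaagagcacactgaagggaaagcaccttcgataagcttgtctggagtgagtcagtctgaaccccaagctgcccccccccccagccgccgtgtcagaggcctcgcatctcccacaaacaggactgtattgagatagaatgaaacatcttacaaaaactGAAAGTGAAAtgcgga
Tnfrsf1b, chr4:145246871-145247120, minus strand: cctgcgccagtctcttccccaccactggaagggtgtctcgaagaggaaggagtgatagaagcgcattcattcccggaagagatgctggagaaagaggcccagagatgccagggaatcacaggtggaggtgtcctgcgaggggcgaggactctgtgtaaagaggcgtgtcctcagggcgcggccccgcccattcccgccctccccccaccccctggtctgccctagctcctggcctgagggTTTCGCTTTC
The Tnfrsf9 run in capitals is made of 2 overlapping kB matches, 43 to 33 bases before the start. Tnfaip2 has 1 match, on the opposite strand 24 to 15 bases before the start. Tnfaip3 has 2, the nearer of them on the opposite strand 12 to 3 bases before the start. Tnfaip8l1 has 1, also on the opposite strand and farther out, at 148 to 139 bases. The ISRE match of Tnfsf13b lies 16 to 7 bases before the start. Tnfrsf9, Tnfaip3 and Tnfsf13b each have a second annotated window, without a match to either motif, that is not shown. A kB match stood in the windows of 6 of the 27 members (22.2%; the others were Tnfrsf25 and Tnfrsf8), and in those of 8.23% of all annotated genes. An ISRE match stood in 4 members (14.8%; Tnfrsf14 and Tnfrsf17 beside the 2 shown), against 3.46% of all genes. The windows of Tnf, Tnfrsf11a, Tnfrsf23, Tnfrsf13b, Tnfrsf1a, Tnfrsf4, Tnfsf10 and Tnfsf8, which also rose after mainstream smoke, hold no match. A match describes letters in these windows and no measured binding, and Tnfrsf25, Tnfrsf8, Tnfrsf14 and Tnfrsf17, which hold one, were called in none of the 9 comparisons made below.

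The deposited values are log2 signals with array medians between 7.82 and 7.94, and alveolar type 2 cell markers were bright on all 48 arrays, with mean values between 12.41 and 13.18 over 6 genes. Levels of different genes are not comparable on these arrays, so each gene is set only against itself. A gene is described as changed where limma's test over all 12393 genes gave a Benjamini-Hochberg adjusted p below 0.05. Errors after a difference are its standard errors from that model, with 8 animals in each group. The labels call the 8 arrays of a group biological replicates. The mean correlation of an array with the others was 0.986 to 0.991 for 43 arrays, and 5 stood apart at 0.954 to 0.979. DIO-SC-3 carried skeletal muscle and squamous epithelium markers, and DIO-SC-7 carried thymocyte markers (mean 10.9 over 5 genes, at most 5.88 on the other arrays). Adipocyte markers were high on DIO-SC-3, DIO-SC-7 and RW-SS-6. The fourth and the fifth, DIO-MS-1 and DIO-MS-6, had interferon-induced genes at 12.31 and 12.14 (mean of 8 genes), where RW-MS-7 had 10.30 and all other arrays 8.95 or less. Their T cell markers stood at 8.66 and 8.21 (mean of 7 genes), against at most 7.49 on the arrays other than these and DIO-SC-7. Results that rest on these arrays are given with and without them.

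**Figure D1:**
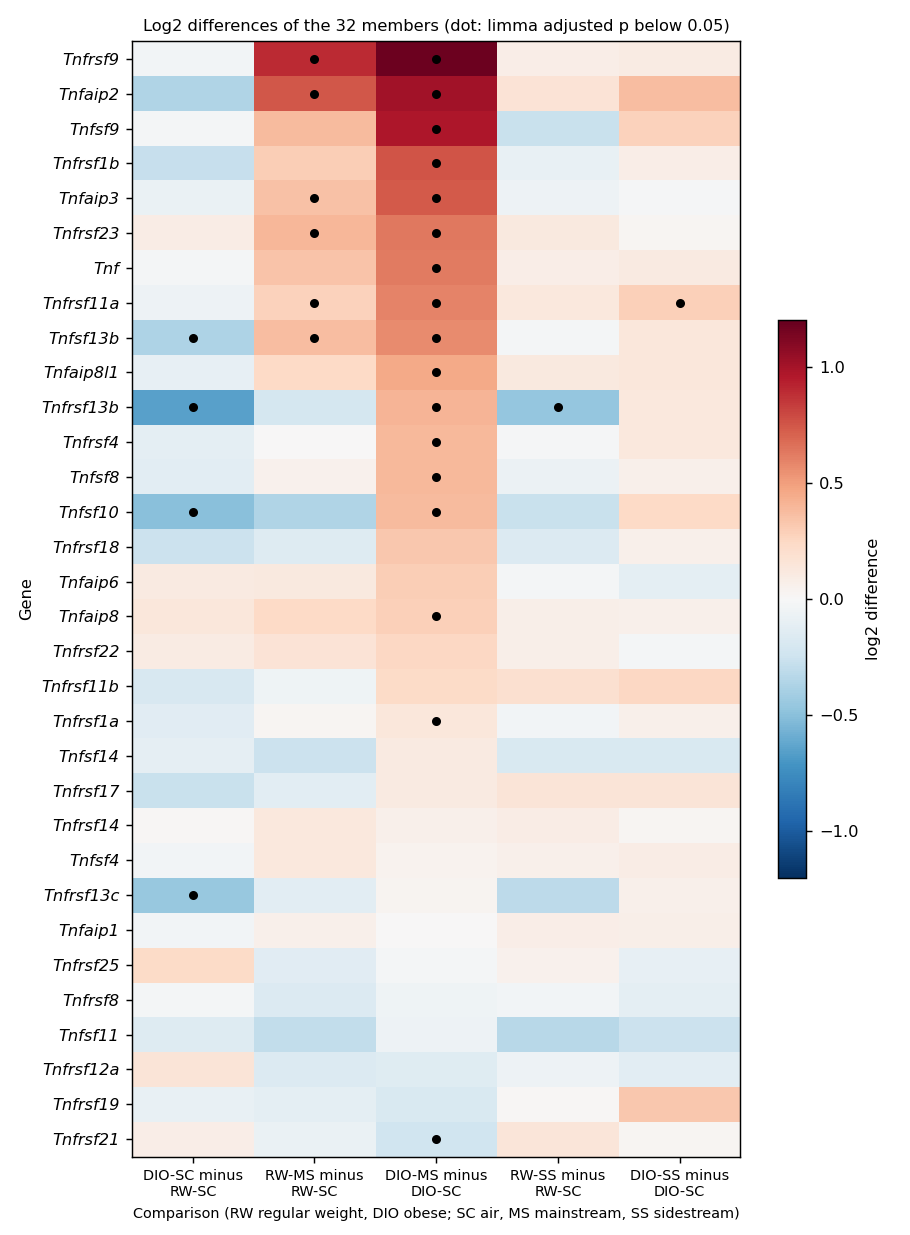
Log2 differences of the 32 members (rows) in 5 comparisons (columns), red for higher and blue for lower in the first-named group, on a linear scale from -1.2 to 1.2. Black dots mark an adjusted p below 0.05, and 17 of them stand in the column of mainstream smoke in obese animals.

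Mainstream smoke against filtered air was the comparison with the most changes among the members, and nearly all were upward. Read from 1 probe set per gene, 6 of 32 members rose and 0 fell in regular weight animals, where 14.7% of all genes changed (6.61% rose and 8.07% fell). The median difference of the 32 was 0.06, against -0.03 over all genes. In obese animals 16 members rose and 1 fell, where 21.4% of all genes changed (11.7% rose and 9.76% fell), and the median was 0.29 against -0.02. All 6 members that rose in regular weight animals also rose in obese animals, which is 35.3% of the 17 that changed there. They are Tnfrsf9, Tnfaip2, Tnfrsf23, Tnfsf13b, Tnfaip3 and Tnfrsf11a. Leaving out DIO-MS-1 and DIO-MS-6 left 11 members changed in obese animals, 10 of them from the 17, where 13.7% of all genes changed, and a median of 0.13. Leaving out all 5 arrays that stood apart left 13, of which 12 were among the 17, where 18% of all genes changed, and a median of 0.12. The regular weight count rose to 10 without the 2 arrays (17.1% of all genes) and to 15 without the 5 (24.3%), because the model takes each gene's spread from all groups while these differences themselves stay as they were. Of the 15, 11 rose, and Tnfrsf13b, Tnfsf10, Tnfsf11 and Tnfsf14 fell. Fitting only the 2 regular weight groups gave 13 changed members (17.8% of all genes), and only the 2 obese groups 10 (9.51%).

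Among the ligands, Tnf itself rose after mainstream smoke in obese animals, and its difference in regular weight animals was close to the threshold. Its signal lay between 6.29 and 6.50 in RW-SC (median 6.35) and between 6.49 and 6.91 in RW-MS (median 6.73). In DIO-SC it lay between 6.14 and 6.59 (median 6.34), and in DIO-MS between 6.57 and 8.05 (median 6.74). In each diet 7 of 8 smoke-exposed animals were above every air animal, and the remaining 1 lay just below the highest control. The difference in obese animals was 0.63 ± 0.13 (1.55-fold, adjusted p = 1.89e-04), and 0.33 without DIO-MS-1 (7.69) and DIO-MS-6 (8.05). In regular weight animals it was 0.35 ± 0.13 (1.27-fold), which missed the threshold in limma's test over all arrays (adjusted p = 0.056) and passed it without those 2 arrays (adjusted p = 1.15e-04).

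Tnfsf9, the ligand of 4-1BB, was between 6.20 and 7.66 in DIO-SC (median 6.74) and between 7.08 and 8.82 in DIO-MS (median 7.48). The difference was 0.97 ± 0.19 (1.96-fold, adjusted p = 1.80e-04), but only 3 of 8 exposed animals were above every control, since DIO-SC-1 reached 7.66. The 2 interferon-high arrays were the highest, at 8.82 and 8.79, and without them the difference was 0.62. Without all 5 it was 0.45. In regular weight animals Tnfsf9 was between 6.44 and 7.09 in air (median 6.85) and between 6.84 and 7.78 in mainstream smoke (median 7.13). That difference of 0.38 did not pass over all arrays or without DIO-MS-1 and DIO-MS-6. It passed without all 5 arrays and when only the 2 regular weight groups were fitted. Tnfsf13b, the B cell survival factor BAFF, was between 9.41 and 9.71 in RW-SC (median 9.51) and between 9.75 and 10.05 in RW-MS (median 9.96), so that all 8 exposed animals were above all controls. That difference was 0.37 ± 0.11 (1.29-fold, adjusted p = 0.0157). In obese animals Tnfsf13b went from 8.27 to 9.56 (median 9.39) in air to 9.39 to 9.92 (median 9.80) in smoke, by 0.57 ± 0.11 (1.49-fold, adjusted p = 8.13e-05). Here DIO-MS-1 and DIO-MS-6 did not stand apart (9.75 and 9.83), and the difference without them was 0.56. The low end was set by the control arrays DIO-SC-7 (8.27) and DIO-SC-3 (8.80), and without all 5 arrays it was 0.34, still past the threshold. Tnfsf8, the CD30 ligand, rose by 0.39 ± 0.14 in obese animals (adjusted p = 0.0446), a rise that was 0.12 (adjusted p = 0.555) without DIO-MS-1 (6.82) and DIO-MS-6 (6.37), which were the highest arrays of their group.

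The receptor with the largest change was Tnfrsf9 (4-1BB), a costimulatory receptor of activated T cells that other leukocytes also carry. Its signal was 6.53 to 7.20 in RW-SC (median 6.72) and 7.09 to 8.05 in RW-MS (median 7.71). It was 6.43 to 7.08 in DIO-SC (median 6.74) and 7.40 to 8.75 in DIO-MS (median 7.77). All 8 obese and 7 of 8 regular weight smoke-exposed animals were above every air animal of their diet, and the sidestream groups stayed within 6.42 to 7.19. The difference was 0.90 ± 0.14 in regular weight (1.87-fold, adjusted p = 5.81e-06) and 1.18 ± 0.14 in obese animals (2.27-fold, adjusted p = 6.02e-09), or 0.93 without DIO-MS-1 and DIO-MS-6. A second probe set of Tnfrsf9, dimmer on average (4.99), differed by 1.71 and 2.63 in the same 2 comparisons, and another near the floor of the array (3.61) by 0.05 and 0.16. The size of the Tnfrsf9 response therefore depends on the probe set.

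The receptors of TNF itself are given side by side. Tnfrsf1b (TNFR2), which is found mainly on leukocytes and endothelium, was 8.20 to 8.50 in DIO-SC (median 8.35) and 8.73 to 9.93 in DIO-MS (median 8.86), with no overlap. It rose by 0.76 ± 0.12 (1.69-fold, adjusted p = 4.58e-06), by 0.49 without DIO-MS-1 (9.90) and DIO-MS-6 (9.93), and by 0.44 without all 5 arrays. In regular weight animals it was 8.41 to 8.88 in air (median 8.66) and 8.63 to 9.26 after mainstream smoke (median 8.95). That difference of 0.30 ± 0.12 missed the threshold (adjusted p = 0.094, with 5 of 8 animals above every control) and passed it without those 2 arrays (adjusted p = 0.00345). A dimmer probe set of Tnfrsf1b differed by 0.06 in regular weight and 0.55 in obese animals. Tnfrsf1a (TNFR1), the death domain receptor that most cells carry, was the steadiest of the members, with a residual SD of 0.094. It was 10.65 to 10.93 in RW-SC and 10.71 to 10.89 in RW-MS, a difference of 0.03 (adjusted p = 0.789). In DIO-SC it was 10.37 to 10.80 and in DIO-MS 10.63 to 10.91, a difference of 0.13 ± 0.05 (1.10-fold) that was at the threshold (adjusted p = 0.0464). That call was lost under 5 of 9 alternatives. The difference was 0.11 without DIO-MS-1 and DIO-MS-6 (adjusted p = 0.183) and 0.04 without all 5 arrays (0.625). The adjusted p was 0.225 when only the 2 groups were fitted, 0.0686 after centring each array on its median and 0.07 after quantile normalization.

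Tnfrsf11a (RANK), the receptor of the osteoclast and dendritic cell factor RANKL, was 5.74 to 6.25 in RW-SC (median 6.11), 6.15 to 6.60 in RW-MS (median 6.26), 5.74 to 6.16 in DIO-SC (median 6.01) and 6.18 to 7.08 in DIO-MS (median 6.56). It rose by 0.28 ± 0.09 in regular weight (1.22-fold, adjusted p = 0.0308) and 0.59 ± 0.09 in obese animals (1.51-fold, adjusted p = 2.29e-06; 0.48 without the 2 arrays). All 8 exposed obese animals were above every control, and 4 of 8 regular weight ones. The other, dimmer probe set of Tnfrsf11a differed by 0.16 ± 0.11 and 0.52 ± 0.11. Tnfrsf23, a mouse decoy receptor for TRAIL (Tnfsf10), was 4.88 to 5.26 in RW-SC, 5.20 to 5.75 in RW-MS, 4.96 to 5.38 in DIO-SC and 5.27 to 6.49 in DIO-MS. It rose by 0.40 ± 0.11 (1.32-fold, adjusted p = 0.0118) and 0.63 ± 0.11 (1.55-fold, adjusted p = 2.75e-05; 0.41 without the 2 arrays), with 6 of 8 animals above every control in each diet. Tnfrsf22 is a close relative of Tnfrsf23 with a similar sequence, and signal shared between their probes cannot be told apart here. Its differences were 0.17 and 0.25, and neither passed the threshold. RANKL (Tnfsf11) was dim, and its 2 probe sets differed in sign in regular weight animals (-0.30 and 0.29).

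The remaining receptor calls were all in obese animals. Tnfrsf4 (OX40), a T cell costimulator, rose by 0.39 ± 0.13 (adjusted p = 0.0218) with DIO-MS-1 at 8.48 and DIO-MS-6 at 8.49 against 7.27 to 7.82 in the other 6. Without those 2 arrays its difference was 0.15 (adjusted p = 0.361). Tnfrsf13b (TACI) rose by 0.41 ± 0.12 (adjusted p = 0.00938) with 0 of 8 animals above the highest control, which was the thymocyte-bearing DIO-SC-7. Its difference was 0.33 without DIO-MS-1 and DIO-MS-6, which did not pass (adjusted p = 0.0732), and 0.39 without all 5 arrays, which did (0.0011). It did not pass when only the 2 groups were fitted (0.161). Tnfrsf21 (DR6), a death domain receptor, was the single member that fell on the probe sets used, by 0.24 ± 0.08 (adjusted p = 0.0243) with 5 of 8 animals below every control, and by 0.19 without DIO-MS-1 and DIO-MS-6 (adjusted p = 0.137). Tnfrsf12a (Fn14, the TWEAK receptor) did not pass over all arrays (-0.15), and fell by 0.39 without those 2 arrays (adjusted p = 0.0039), which read 9.43 and 9.31 against 8.27 to 8.62 in the other 6. Tnfrsf18 (GITR) showed the same arrangement, at 8.73 and 8.49 against 7.06 to 7.40, and did not pass (0.33, adjusted p = 0.162; -0.02 without those 2 arrays). Tnfrsf19 passed in neither diet (-0.12 ± 0.11 in regular weight and -0.18 ± 0.11 in obese animals). Its 2 dimmer probe sets differed by -0.38 ± 0.11 and -0.32 ± 0.11 in regular weight animals. In obese animals they differed by -0.24 ± 0.11 and -0.35 ± 0.11. The mean of its probe sets did not pass in either diet, and the size of its difference depends on the probe set.

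Among the Tnfaip genes, Tnfaip2 (also called M-Sec, a cytokine-induced gene of endothelium and myeloid cells) was 8.62 to 8.95 in RW-SC (median 8.84) and 9.35 to 9.76 in RW-MS (median 9.56). It was 7.77 to 8.82 in DIO-SC (median 8.56) and 8.95 to 10.36 in DIO-MS (median 9.33). Exposed and control animals did not overlap in either diet. The rise was 0.74 ± 0.13 in regular weight (1.68-fold, adjusted p = 5.51e-05) and 1.01 ± 0.13 in obese animals (2.01-fold, adjusted p = 5.70e-08), the latter 0.76 without DIO-MS-1 and DIO-MS-6 and 0.66 without all 5 arrays. By its suffix the probe set may also match other transcripts, and the other probe set of the gene differed by 0.40 and 0.75. Tnfaip3 (A20), the ubiquitin-editing brake on NF-kB, was 7.69 to 8.22 in RW-SC (median 7.84), 7.68 to 8.52 in RW-MS (median 8.27), 7.55 to 8.25 in DIO-SC (median 7.77) and 8.18 to 9.38 in DIO-MS (median 8.37). The rise was 0.35 ± 0.12 in regular weight (1.28-fold, adjusted p = 0.0439, 5 of 8 above every control) and 0.74 ± 0.12 in obese animals (1.67-fold, adjusted p = 8.34e-06, 6 of 8), the latter 0.51 without the 2 arrays. Array RW-MS-5 (7.68) was the lowest value among the regular weight animals exposed to mainstream smoke and lay below every RW-SC animal.

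In obese animals Tnfaip8l1 also rose by 0.45 ± 0.10 (adjusted p = 5.57e-04; 0.30 without the 2 arrays). Tnfaip8, an anti-apoptotic NF-kB target, rose by 0.29 ± 0.10 (adjusted p = 0.0293) with 0 of 8 animals above the highest control, DIO-SC-7. Without DIO-MS-1 and DIO-MS-6 the Tnfaip8 difference was 0.21 (adjusted p = 0.187), and without all 5 arrays it was 0.37 and passed. Tnfaip6 (TSG-6), a hyaluronan-binding protein, and Tnfaip1 did not pass in either diet. That a call was made in 1 diet and not in the other does not show a difference between the diets, which is tested below.

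**Figure D2:**
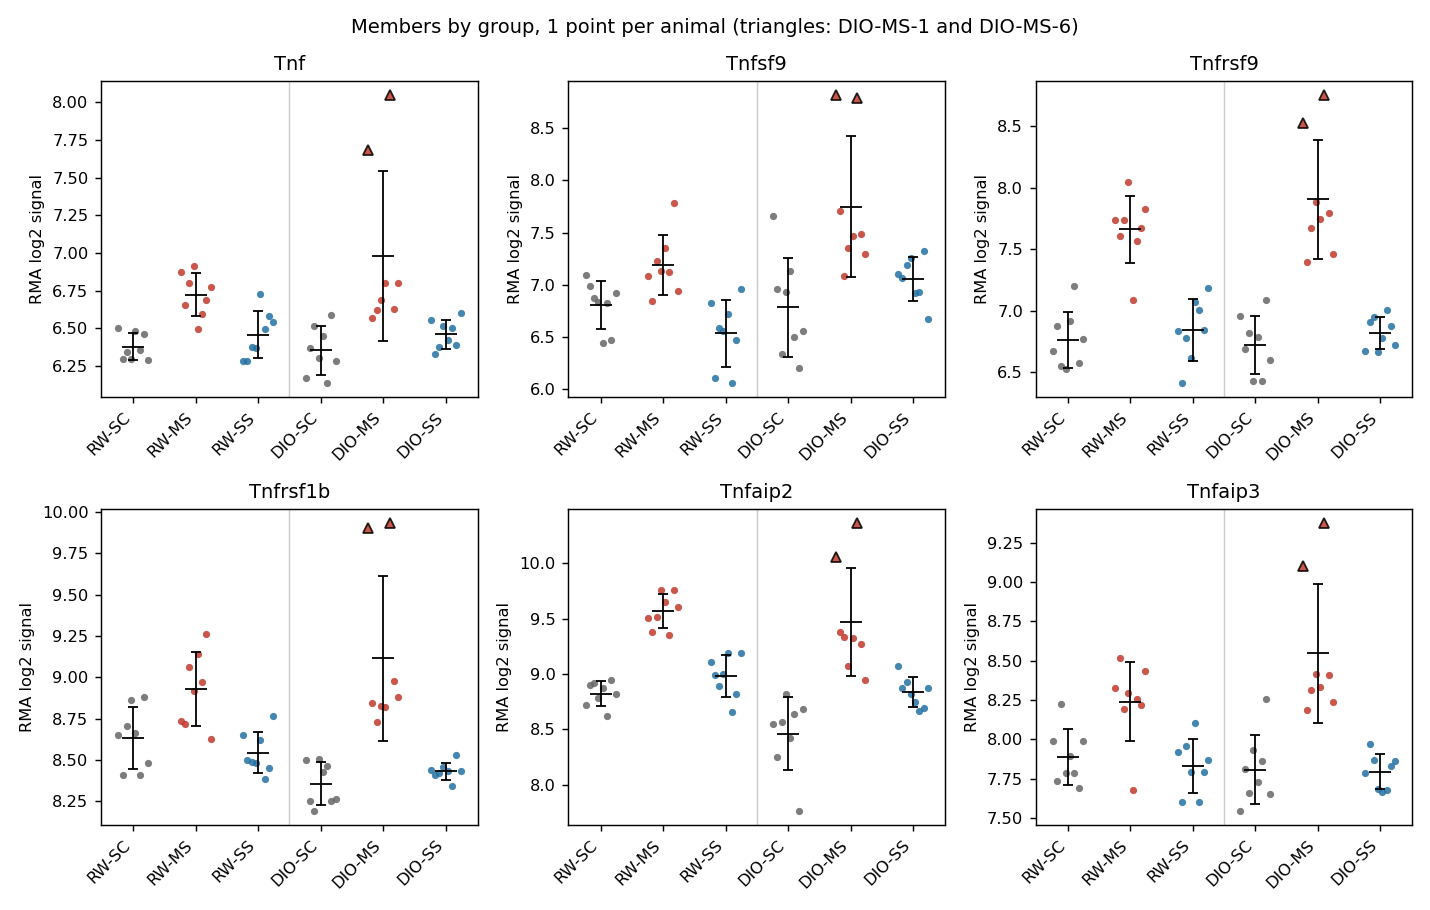
RMA log2 signal (y axis) of 6 members in the 6 groups (x axis), with 1 point per animal and bars for the mean and SD of 8 animals. Triangles are DIO-MS-1 and DIO-MS-6, the 2 highest arrays of every panel; for Tnfaip2 every animal in mainstream smoke lies above every air animal of its diet.

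Some of the genes downstream of the receptors also changed after mainstream smoke. Of all genes 14.7% changed in regular weight and 21.4% in obese animals, and 13.7% in obese animals without DIO-MS-1 and DIO-MS-6. Of 17 genes known to be induced by TNF that were measured, 10 rose in regular weight and 13 in obese animals after mainstream smoke and 0 fell in either. The median differences were 0.43 and 0.65. The neutrophil chemokine Cxcl1 rose by 3.69 ± 0.24 (12.9-fold) and 4.56 ± 0.24 (23.6-fold), and the monocyte chemokine Ccl2 by 2.40 ± 0.28 and 3.10 ± 0.28. Il6 rose by 1.35 ± 0.38 and 2.16 ± 0.38. Without DIO-MS-1 and DIO-MS-6, 11 of the 17 were changed in obese animals, all upward. Of 14 measured genes of the NF-kB pathway, 7 rose and 1 fell in regular weight and 9 rose and 1 fell in obese animals (7 rose without the 2 arrays). Those with the largest changes were the inhibitor-like proteins Nfkbiz (1.49 ± 0.11 and 1.85 ± 0.11) and Nfkbie (0.80 ± 0.16 and 1.30 ± 0.16), followed by the subunits Relb and Nfkb2. Among 16 adaptors and caspase regulators, Birc3 (cIAP2), a ubiquitin ligase of the TNF receptor complex, was the single gene changed in regular weight animals (0.61 ± 0.09). In obese animals Birc3 (0.81), Traf1 (0.49), Casp8 (0.43), Traf2 (0.24) and Fadd (0.17) rose, and 3 of the 16 did so without the 2 arrays. Of 12 other ligands and receptors of the superfamily, 0 passed limma's test in regular weight animals (2 at an unadjusted p below 0.05), and Cd40 rose by 0.67 ± 0.13 and Eda fell by 0.18 in obese ones. The share changed in regular weight and obese animals was 6.25% and 31.2% for the adaptors. For the other ligands and receptors it was 0% and 16.7%.

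Markers of some cell types moved too. Over all arrays 14.7% of all genes changed after mainstream smoke in regular weight and 21.4% in obese animals. The neutrophil counts below lie near these shares. Of 6 dendritic cell markers, 4 rose and 1 fell in obese animals after mainstream smoke, with Fscn1 1.51 and Ccr7 0.78 higher, and 1 rose and 1 fell in regular weight animals. Their mean was 7.66 to 8.16 in DIO-MS against 7.18 to 7.63 in DIO-SC, and 7.42 to 7.80 in RW-MS against 7.36 to 7.63 in RW-SC. Of 8 neutrophil markers 2 rose in obese and 1 in regular weight animals, and their mean overlapped between smoke and air in both diets (8.15 to 8.95 against 7.70 to 8.69 in obese animals). Of 10 alveolar macrophage markers 3 rose and 2 fell in regular weight and 3 rose and 3 fell in obese animals, with means of 9.63 to 10.22 in RW-MS against 9.58 to 9.78 in RW-SC and of 9.43 to 9.78 in DIO-MS against 9.59 to 9.98 in DIO-SC. Of 7 fibroblast markers 3 rose in each diet, with means of 10.21 to 10.85 in RW-MS against 9.83 to 10.26 in RW-SC and of 10.34 to 10.86 in DIO-MS against 10.09 to 10.63 in DIO-SC. Of 8 endothelial markers 3 fell in regular weight and 1 in obese animals, and their means overlapped between smoke and air (11.17 to 11.53 against 11.47 to 11.76, and 10.94 to 11.60 against 10.74 to 11.69). Of 6 alveolar type 1 markers 3 fell in regular weight animals, with no overlap of their means (12.25 to 12.39 against 12.45 to 12.67), and 1 rose and 2 fell in obese ones. Of 6 alveolar type 2 markers 2 fell in regular weight and 3 rose in obese animals. In obese animals 4 of 7 skeletal muscle, 2 of 6 squamous epithelium and 2 of 5 adipocyte markers were lower after smoke, in the comparison whose controls include DIO-SC-3 and DIO-SC-7. No T cell marker of 7 passed limma's test over all arrays in either diet (0 at an unadjusted p below 0.05). Without the 5 arrays that stood apart, 5 of the 7 were lower in regular weight animals and 0 passed in obese ones. In that setting 24.3% and 18% of all genes changed in the 2 diets. There 5 of 8 endothelial markers were lower in regular weight and 4 in obese animals, and of 6 alveolar type 1 markers 5 and 2 were lower. The part of these cells in the changes of the members was not tested.

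**Figure D3:**
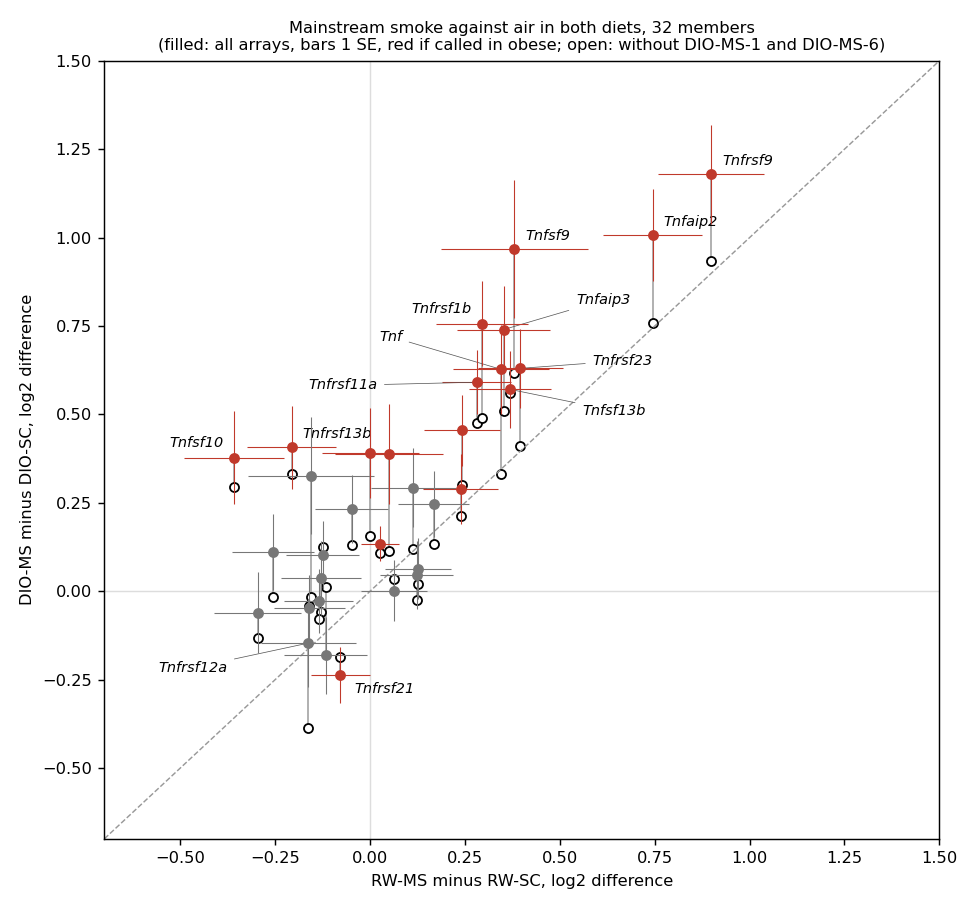
Log2 difference between mainstream smoke and air in regular weight (x axis) and obese (y axis) animals for the 32 members, filled points over all arrays with bars of 1 standard error (red where the obese difference passed the test). Open circles give the obese difference without DIO-MS-1 and DIO-MS-6, which brings Tnfrsf9 from 1.18 to 0.93, Tnfaip2 from 1.01 to 0.76 and Tnf from 0.63 to 0.33, close to the dashed line of equal differences.

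Whether obese animals responded differently was tested as the difference between the 2 differences. In the response to mainstream smoke 1 of 32 members passed, where 0.888% of all genes did (0.589% upward and 0.299% downward), and the median was 0.23 against 0.02 over all genes (0.08 without DIO-MS-1 and DIO-MS-6). The member was Tnfsf10 (TRAIL), an interferon-inducible ligand that can start apoptosis through death receptors. In regular weight animals Tnfsf10 was 8.35 to 9.05 in air (median 8.80) and 8.18 to 8.80 after mainstream smoke (median 8.33). In obese animals it was 7.74 to 8.62 in air (median 8.25) and 8.39 to 9.02 after mainstream smoke (median 8.62). Its difference of -0.36 ± 0.13 in regular weight animals missed the threshold (adjusted p = 0.0582), while it rose in obese animals (0.38 ± 0.13, 1.30-fold, adjusted p = 0.0328). That rise was 0.29 without DIO-MS-1 and DIO-MS-6 (adjusted p = 0.172) and 0.18 without all 5 arrays (0.416), and neither passed. The regular weight difference did pass without these arrays (adjusted p = 0.0495 and 0.0194). All 4 groups overlapped. The difference between the diets was 0.74 ± 0.19 (adjusted p = 0.04). It was 0.65 without DIO-MS-1 and DIO-MS-6 (adjusted p = 0.0978) and 0.54 without all 5 arrays (adjusted p = 0.145), so the call was lost in both cases. Mean Tnfsf10 signal was 8.75 in RW-SC and 8.25 in DIO-SC, and 8.39 in RW-MS and 8.62 in DIO-MS. The same air groups enter the response to sidestream smoke. There Tnfsf10 differed between the diets by 0.50 (0.13 to 0.87 at 2 standard errors on either side), which did not pass. A response particular to mainstream smoke was not tested. Tnfrsf13b (TACI) had the next largest value, 0.61, and missed the threshold (adjusted p = 0.0585). Tnfrsf13b passed without all 5 arrays (0.60, adjusted p = 0.00395), after quantile normalization (0.0499) and with the dimmest 25% of genes left out (0.0444), but not without DIO-MS-1 and DIO-MS-6 (0.54, adjusted p = 0.138). On DIO-MS-1 Tnfsf10 was 9.02 and on DIO-MS-6 8.73, against 8.39 to 8.76 on the other 6 arrays. The part of interferon in these values was not tested. For the members with the largest responses the difference between diets had wide bounds, given as 2 standard errors on either side. These were -0.11 to 0.68 for Tnfrsf9 (0.28), -0.11 to 0.63 for Tnfaip2 (0.26), -0.08 to 0.64 for Tnf (0.28) and 0.12 to 0.80 for Tnfrsf1b (0.46, adjusted p = 0.187). Without DIO-MS-1 and DIO-MS-6 these values were 0.04 for Tnfrsf9, 0.02 for Tnfaip2, -0.01 for Tnf and 0.19 for Tnfrsf1b.

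**Figure D4:**
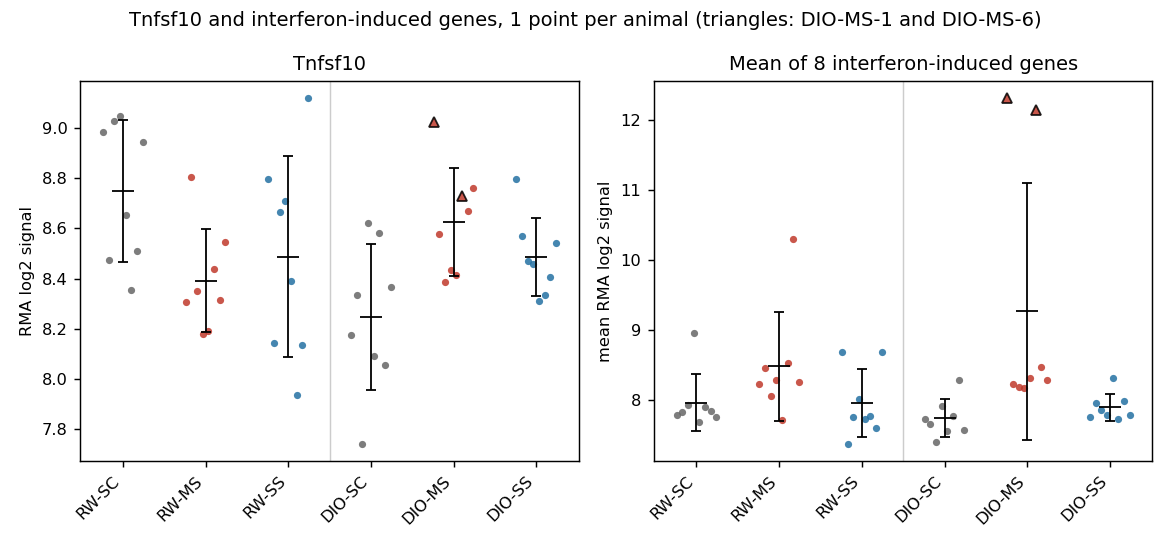
RMA log2 signal of Tnfsf10 (left) and the mean of 8 interferon-induced genes (right) in the 6 groups, with 1 point per animal and bars for the mean and SD of 8 animals. The triangles, DIO-MS-1 and DIO-MS-6, lie above 12 on the right and within or close to the range of their group on the left, at 9.02 and 8.73.

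In filtered air, obese animals had lower signals of BAFF, of 2 of its receptors and of TRAIL. Of the 32 members 4 were lower and 0 higher, where 8.28% of all genes changed (2.29% higher and 5.99% lower), and the median was -0.08 against -0.03 over all genes. Tnfrsf13b (TACI), a receptor of BAFF on B cells and plasma cells, was 8.57 to 9.05 in RW-SC (median 8.69) and 7.46 to 9.09 in DIO-SC (median 8.00). Its highest DIO-SC value belonged to DIO-SC-7, and the other 7 animals were below every RW-SC animal. The difference was -0.65 ± 0.12 (1.57-fold lower, adjusted p = 2.16e-04) and -0.71 without the 5 arrays. Tnfrsf13c (the BAFF receptor proper, needed for B cell survival) was 6.32 to 7.27 in RW-SC (median 6.91) and 6.20 to 6.61 in DIO-SC (median 6.38), a difference of -0.45 ± 0.10 (1.37-fold lower, adjusted p = 0.00433). Of the 8 obese animals 4 lay below every regular weight animal. Tnfsf10 was 0.50 ± 0.13 lower (1.42-fold, adjusted p = 0.0107), with 5 of 8 obese animals below every regular weight one. Tnfsf13b was 0.37 ± 0.11 lower (1.29-fold, adjusted p = 0.0234), but without the arrays that stood apart, which include its 2 lowest values, the difference was -0.15 (adjusted p = 0.199). Tnf (-0.03, adjusted p = 0.933), Tnfaip3 (-0.08, 0.752), Tnfrsf1a (-0.14, 0.0683) and Tnfrsf1b (-0.28, 0.154) did not pass in limma's test. Tnfrsf1b passed without DIO-MS-1 and DIO-MS-6 (adjusted p = 0.0104). It did not pass without all 5 arrays or when only the 2 air groups were fitted, and its other probe set differed by -0.17 ± 0.13. Tnfaip2 was 0.36 ± 0.13 lower, which did not pass over all arrays but passed without those 2 arrays and without all 5. Tnfrsf18 also passed without all 5. When only the 2 air groups were fitted, 2 of the 4 calls remained, those of Tnfrsf13b and Tnfrsf13c. The related ligand Ltb (lymphotoxin beta), made by lymphocytes, was 0.59 ± 0.14 lower (adjusted p = 0.00581) with 7 of 8 animals below all controls. It was the single call among the 12 other ligands and receptors. Of 16 adaptors 3 were lower (Traf1 -0.27, Fadd -0.21 and Sharpin -0.12), of 14 NF-kB pathway genes 1 was lower (the kinase Map3k14, -0.24), and of 17 TNF-induced genes 1 was lower (Ier3, -0.32).

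B cell markers were lower in the same comparison. Of 9 measured markers 8 were lower in obese animals in air, with a median difference of -0.72, and the same number without the 5 arrays. Cd79b, a chain of the B cell receptor complex, was 1.0 ± 0.12 lower, and Ms4a1 (CD20) 0.98 ± 0.14. The mean of the 9 was 8.50 to 9.09 in RW-SC and 7.62 to 8.28 in DIO-SC, with no overlap. After mainstream smoke it was 8.03 to 8.58 in regular weight animals, where 5 of 9 markers fell, and 7.95 to 8.50 in obese animals, where 2 rose. Of all genes 14.7% and 21.4% changed in these 2 comparisons with air. Plasma cell markers changed less, with 1 of 5 lower in obese animals in air, where 8.28% of all genes changed. How much of the change in Tnfrsf13b and Tnfrsf13c belongs to the number of B cells was not tested.

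**Figure D5:**
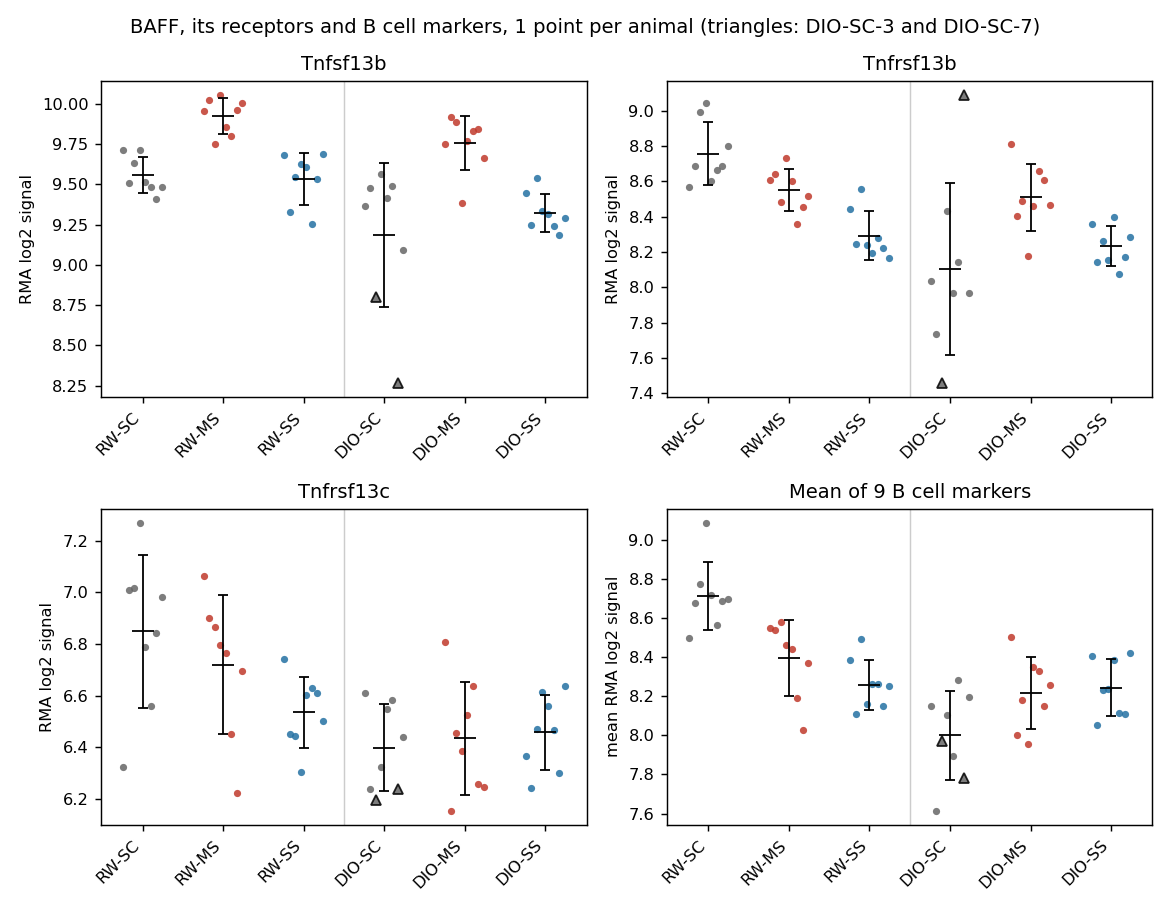
RMA log2 signal of Tnfsf13b, Tnfrsf13b and Tnfrsf13c, and the mean of 9 B cell markers, in the 6 groups, with 1 point per animal and bars for the mean and SD of 8 animals. Triangles are DIO-SC-3 and DIO-SC-7; for Tnfrsf13b the latter (9.09) is the highest point of all, while the other DIO-SC animals lie below every RW-SC animal.

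Few members changed after sidestream smoke. In regular weight animals 1 of 32 members changed, downward, where 2.17% of all genes changed (0.694% rose and 1.48% fell). In obese animals 1 of 32 rose, where 6.85% of all genes changed (4.26% rose and 2.59% fell). Tnfrsf13b fell in regular weight animals, from 8.57 to 9.05 in air to 8.17 to 8.56 in smoke (median 8.24), so that all 8 animals were below all controls. The difference was -0.46 ± 0.12 (1.38-fold lower, adjusted p = 0.0229). B cell markers moved with it, with 7 of 9 lower, a median of -0.54 and a mean of 8.11 to 8.49. Tnfrsf11a rose in obese animals from 5.74 to 6.16 in air to 6.01 to 6.50 in smoke (median 6.31), by 0.28 ± 0.09 (1.22-fold, adjusted p = 0.0477, 7 of 8 above every control). That call lies at the threshold, and 4 of the 8 alternatives that include the gene gave adjusted p values of 0.0502 to 0.136. The other probe set of Tnfrsf11a differed by 0.07 ± 0.11. Tnfrsf19 (TROY), a receptor of epithelial progenitors, was 9.70 to 9.88 in DIO-SS and 8.73 to 9.68 in DIO-SC, with all 8 exposed animals above the controls, and did not pass (0.33 ± 0.11, adjusted p = 0.0585). Without the 5 arrays it was 0.21 and passed (adjusted p = 0.0273). It passed in 5 of 9 alternatives, while the other 2 probe sets of Tnfrsf19 differed by 0.08 ± 0.11 and 0.10 ± 0.11 and the mean of all 3 did not pass (0.17, adjusted p = 0.313). Tnfaip2 had the largest difference in obese animals, 0.37 ± 0.13, which did not pass over all arrays. It passed without DIO-MS-1 and DIO-MS-6 and without all 5 arrays, and its other probe set differed by 0.20 ± 0.12. Tnf differed by 0.08 and 0.11, Tnfrsf9 by 0.08 and 0.10 and Tnfaip3 by -0.06 and -0.01 in regular weight and obese animals, none of which passed. Between the diets, 0 of 32 members differed in the response to sidestream smoke by limma's test (3 at an unadjusted p below 0.05), where 0.654% of all genes did (0.395% upward and 0.258% downward). Tnfrsf13b had the largest such value, 0.59, and passed without the 5 arrays (0.65, adjusted p = 8.87e-04). Of the 12 other ligands and receptors, the death receptor Fas rose in regular weight animals by 0.51 ± 0.09 (adjusted p = 2.73e-04). Of the 16 adaptors, 14 NF-kB genes and 17 TNF-induced genes, Ikbkb (-0.20) and the transcription factor Junb (-0.50) fell in regular weight animals and no other gene passed. In obese animals Traf1 (0.28), Ptgs2 (cyclooxygenase 2, 0.88 ± 0.16) and Ier3 (0.38) rose and no other gene of these lists passed, with 0 of the 12 other ligands and receptors (2 at an unadjusted p below 0.05).

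Mainstream and sidestream smoke were also set against each other within each diet; these comparisons share the mainstream arrays with those above. In regular weight animals 6 of 32 members were higher after mainstream smoke and 0 lower, where 9.77% of all genes differed (6.05% higher and 3.72% lower). They were Tnfrsf9 (0.82), Tnfsf9 (0.65), Tnfaip2 (0.58), Tnfaip3 (0.41), Tnfsf13b (0.39) and Tnfrsf1b (0.39). All 8 mainstream animals had more Tnfaip2 and Tnfsf13b signal than any sidestream animal. In obese animals 12 were higher and 2 lower, where 16.8% of all genes differed (8.83% higher and 8% lower). The higher ones were led by Tnfrsf9 (1.08 ± 0.14, adjusted p = 7.41e-08), Tnfaip3 (0.75 ± 0.12), Tnfsf9 (0.69 ± 0.19) and Tnfrsf1b (0.68 ± 0.12), followed by Tnfaip2 (0.63), Tnfrsf23 (0.61), Tnf (0.52), Tnfsf13b (0.43), Tnfaip6 (0.41), Tnfaip8l1 (0.32), Tnfrsf11a (0.31) and Tnfrsf22 (0.27). Tnfrsf19 was 0.51 ± 0.11 lower in all 8 mainstream animals (adjusted p = 6.46e-04), which ranged from 8.64 to 9.64, and Tnfrsf21 was 0.26 lower. Both other probe sets of Tnfrsf19 were lower too (-0.32 and -0.46). Without DIO-MS-1 and DIO-MS-6, 8 members differed between the smokes in obese animals, where 6.92% of all genes did. They were Tnf, Tnfaip2, Tnfaip3, Tnfrsf1b, Tnfrsf9, Tnfrsf23, Tnfsf13b and Tnfrsf19.

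A total of 11 members were called in none of the 9 comparisons, namely Tnfaip1, Tnfrsf8, Tnfrsf11b, Tnfrsf12a, Tnfrsf14, Tnfrsf17, Tnfrsf18, Tnfrsf25, Tnfsf4, Tnfsf11 and Tnfsf14, with differences between -0.33 and 0.48. Of these, 6 passed in some comparison under at least 1 alternative, among them Tnfrsf17 for mainstream against sidestream smoke in regular weight animals (3 of the 8 alternatives that include it, adjusted p = 0.04 to 0.0491). Of the 32 members 12 lay in the dimmest 25% of all genes by mean signal, and 4 of these passed at least once (Tnfaip6, Tnfrsf11a, Tnfrsf23 and Tnfsf8). Tnfrsf11b (osteoprotegerin, the soluble decoy of RANKL) and Tnfrsf17 (BCMA, the plasma cell receptor of the BAFF family) were among the dim members without a call. Tnfaip1 was not dim, and its differences from air lay between 0.0021 and 0.08.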

How the data were processed

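Lung RNA of 48 mice was hybridized to 1 Affymetrix array each. The authors deposited log2 signals made with RMA, per the submitters' processing notes (version not given in the sources used here); RMA subtracts background, quantile normalizes arrays and summarizes probes. Whether all arrays were normalized together is not given, no raw scans were used, so these steps could not be changed, and no slide or scan batch is named in the sources used here. Of 22690 probe sets, 20393 have 1 gene symbol in the array's annotation, 691 several and 1606 none. Of those with 1 symbol 20380 were used (20351 matched a gene of GRCm38.p6 by Entrez ID), and the one with the highest mean stood for a gene, which left 12393 genes. Members were the genes whose symbol starts with Tnf and that have a probe set of their own. Tnfsf12, Tnfsf13 and Tnfsfm13 stand on 2 probe sets with several symbols and were not analysed here, and 1 other gene is not reported here. Members, lists and the 5 arrays that stand apart were chosen with earlier results of these data known.

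Group means over the 48 arrays were fitted with limma's lmFit, followed by plain eBayes (limma 3.58.1 under R 4.3.3). Two-sided P values were adjusted by Benjamini-Hochberg over all genes within each of 9 contrasts. Named are Tnf, Tnfrsf1a, Tnfrsf1b, Tnfaip3, every member called in a contrast and up to 5 called genes of a pathway list; values by array are given for the members with the largest differences. Genes and differences named outside this rule (differences that missed the threshold, the members never called, and single cell markers) were chosen after their values were seen. The number of arrays, 8 per group, limits the precision of every difference. The alternatives were leaving out the 5 arrays or DIO-MS-1 and DIO-MS-6, centring, quantile normalization, the mean of a gene's probe sets, leaving out the dimmest 25% of genes, eBayes with trend and robust, fitting only the groups compared, and the replicate number as a block. The test was tried on simulated data first. The sources of 4 regular weight arrays repeat a replicate number. Each had the same value as the array whose number it repeats on only 1 to 4 probe sets, and was taken as a separate animal. Plots were made with matplotlib 3.10.9.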

Additional observations from a re-analysis of the deposited data

Results flagged for a closer look

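On 2 arrays a member lay far from the rest of its group of 8, out of 102 groups looked at, where chance alone gives about 5% of groups. Tnfaip3 was 7.678 on RW-MS-5, and the other 7 animals of that group lay between 8.192 and 8.518. Tnfrsf1a was 10.58 on DIO-SS-6, and the other 7 lay between 10.67 and 10.74. For Tnfsf10 the obese response to mainstream smoke exceeded the regular weight one by 0.736, which passed limma's interaction test (adjusted p = 0.04) over all arrays and not without the 5 or the 2 arrays that stand apart (adjusted p = 0.145 and 0.0978).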

How the results depend on the processing

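A set of the differences of single genes named above was computed under up to 9 alternatives. Of these values 1319 kept their direction and their side of the threshold, 94 lost the threshold, 38 gained it and 9 changed sign. None of those 9 passed the threshold. They were Tnfrsf18 for mainstream smoke in obese animals without DIO-MS-1 and DIO-MS-6 (-0.015), Tnfrsf9 for sidestream smoke in regular weight animals with the mean of its probe sets (-0.053) and, for the response to sidestream smoke in obese animals, Tnfrsf1a without the 5 arrays (-0.0099) and Tnfaip3 without the 5 arrays (0.039) and after quantile normalization (0.0016). For the difference between the diets they were Tnf in mainstream smoke without DIO-MS-1 and DIO-MS-6 (-0.014) and Tnfaip2 in it without the 5 arrays (-0.083), and in sidestream smoke Tnf after quantile normalization (-0.017) and Tnfrsf1a without the 5 arrays (-0.0022). Counts of changed members moved by over 1.5 times as follows. The share of all genes called in the same setting is given in brackets. Leaving out the 5 arrays gave 15 for mainstream smoke in regular weight animals (24.3%) and 4 for sidestream smoke in obese animals (9.23%). It gave 1 for the difference between diets in sidestream smoke (1.25%). For mainstream against sidestream smoke it gave 12 and 9 in regular weight and obese animals (17.1% and 12%). Leaving out DIO-MS-1 and DIO-MS-6 gave 10 and 11 for mainstream smoke in regular weight and obese animals (17.1% and 13.7%), and 3 for sidestream smoke in obese animals (8.46%). It gave 0 for the difference between diets in mainstream smoke (0.863%, with 2 members at an unadjusted p below 0.05 in limma). For mainstream against sidestream smoke it gave 10 and 8 (12.2% and 6.92%). Fitting only the groups compared gave 2 for diet in air (2.52%), and 13 and 10 for mainstream smoke in regular weight and obese animals (17.8% and 9.51%). It gave 0 for the difference between diets in mainstream smoke (0.282%, with 5 members unadjusted). Quantile normalization gave 2 for sidestream smoke in obese animals (8.25%) and 2 for the difference between diets in mainstream smoke (1.07%). Leaving out the dimmest 25% of genes also gave 2 for the latter (1.47%). For sidestream smoke in obese animals the mean of all probe sets, eBayes with trend and robust, and the replicate block each gave 0 (4, 5 and 5 unadjusted). There 6.87%, 7.02% and 6.63% of all genes were called. Other than where arrays or groups were left out of the fit, the cause was not tested. Replicate numbers did not pair the arrays. Over 120 same-numbered pairs of arrays the correlation of deviations ran from -0.388 to 0.483 (median 0.0356), and 9 of 48 arrays were closest to their own number. With the number as a block, Tnfaip3 lost its call in regular weight animals (adjusted p = 0.059), and the count there was again 6, with Tnfsf10 in its place. Tnfrsf11a lost its call for sidestream smoke in obese animals (0.0536) and Tnfrsf22 for mainstream against sidestream smoke in them (0.0523), and no other call of a member in the 9 comparisons was lost with the block. No scaling moved the median of all genes by over 0.1.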
